A study of Mus musculus with 39 samples.

Results

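Round spermatids are the haploid cells that follow the second meiotic division, and here they are the single cells of mouse testis whose acrosome genes stood above their spermatocyte and elongating spermatid genes. Cell barcodes were kept with at least 3000 unique molecular identifiers (UMIs, counts of single RNA molecules), at most 20% mitochondrial UMIs and fewer than 3 UMIs over the 5 genes Stra8, Prdm9, Dmrt1, Cyp17a1 and Sox9. Each cell received a mean z-score (a gene's distance from its mean over all kept cells, in standard deviations) over 4 late spermatocyte genes (P: Piwil1, Pou5f2, Ccna1, Hspa2), 4 round spermatid genes (R: Acrv1, Spaca1, Spaca7, Catsper3) and 4 elongating spermatid genes (E: Prm1, Prm2, Tnp2, Oaz3). The 4612 cells whose highest mean was R are the round spermatids. They were 2474 of 10790 classed cells in the control library and 2138 of 8208 in the knockout library, out of 19772 barcodes with at least 3000 UMIs.

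The study followed Kdm6a (also called Utx), an X-linked gene for a demethylase of lysine 27 on histone H3, in the male germ line. Both libraries are 3′-end droplet RNA-seq of single cells, made from the whole testis of males with a floxed Kdm6a allele, and the labels give neither age nor number of animals. The control carried Kdm6a fl/y without Cre (Cre-), and the conditional knockout (cKO) carried Kdm6a fl/y with Ddx4-Cre, in which the germ-cell gene Ddx4 drives Cre, so that somatic cells of the cKO testis keep the gene. With 1 library per genotype no difference between genotypes in the single-cell data could be tested: every interval given covers counting error only, and the genotype cannot be told apart from the library.

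After meiosis a round spermatid resumes transcription of the sex chromosomes, builds the acrosome from Golgi vesicles over its nucleus, starts its tail and stores many messages for later translation. The cell then elongates, replaces its histones with transition proteins and protamines, and falls silent. The transcription factor CREM, which binds cAMP response elements, and the RFX factors, which bind X-boxes, are known activators of genes in these cells.

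Promoter windows of 5 genes are shown as examples, with and without a match, for the peaks and motifs described at the end. Acrv1, Spaca1 and Spaca7 were in the rule, and Izumo1 is an acrosome gene outside it. Tex33 was taken for its match to a part of the X-box, from the genes higher here than in P and E. Each window runs from 250 bases before to 50 bases after a start site, 5′ to 3′ on the gene's strand, with RefSeq sequence of GRCm38.p6. Capitals mark the 8 letters TGACGTCA of the full cAMP response element, or its shorter form TGACG, which lies inside TGACGTCA, on either strand. They also mark GTTGCCATG, a part of the X-box, on either strand.
Acrv1, chr9:36692970-36693269, plus strand: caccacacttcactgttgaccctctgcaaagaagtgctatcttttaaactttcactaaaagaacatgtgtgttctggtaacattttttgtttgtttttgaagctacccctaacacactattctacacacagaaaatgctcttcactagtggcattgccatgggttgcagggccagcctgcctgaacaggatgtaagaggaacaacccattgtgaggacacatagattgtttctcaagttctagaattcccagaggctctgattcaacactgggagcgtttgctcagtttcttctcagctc
Spaca1, chr4:34050016-34050315, minus strand: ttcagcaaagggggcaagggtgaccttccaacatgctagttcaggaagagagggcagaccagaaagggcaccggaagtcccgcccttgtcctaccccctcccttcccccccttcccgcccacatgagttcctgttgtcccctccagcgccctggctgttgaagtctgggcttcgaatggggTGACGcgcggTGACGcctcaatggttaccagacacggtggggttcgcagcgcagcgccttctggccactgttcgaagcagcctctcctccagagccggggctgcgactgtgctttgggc
Spaca7, chr8:12572786-12573085, plus strand: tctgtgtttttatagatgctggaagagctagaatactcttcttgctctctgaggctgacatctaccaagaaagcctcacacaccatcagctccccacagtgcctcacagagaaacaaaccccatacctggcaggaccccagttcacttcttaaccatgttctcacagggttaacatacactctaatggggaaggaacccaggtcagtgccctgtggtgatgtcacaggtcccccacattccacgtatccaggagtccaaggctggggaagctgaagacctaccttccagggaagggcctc
Izumo1, chr7:45621561-45621860, plus strand: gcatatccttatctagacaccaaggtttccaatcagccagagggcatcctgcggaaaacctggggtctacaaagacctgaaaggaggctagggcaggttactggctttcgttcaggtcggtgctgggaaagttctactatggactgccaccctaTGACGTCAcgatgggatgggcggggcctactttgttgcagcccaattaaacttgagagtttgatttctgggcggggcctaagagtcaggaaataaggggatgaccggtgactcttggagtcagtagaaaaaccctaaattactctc
Tex33, chr15:78395863-78396162, minus strand: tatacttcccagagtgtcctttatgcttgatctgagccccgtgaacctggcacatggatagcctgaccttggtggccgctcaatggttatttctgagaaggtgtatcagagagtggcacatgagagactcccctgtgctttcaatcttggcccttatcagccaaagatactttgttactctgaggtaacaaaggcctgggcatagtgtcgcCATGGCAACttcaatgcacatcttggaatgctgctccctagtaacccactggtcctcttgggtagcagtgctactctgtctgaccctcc
The Acrv1 and Spaca7 windows held none of the motifs, Spaca1 held TGACG at 2 places, Izumo1 held the full element and Tex33 held the X-box part. Another listed start site of Tex33, with the window chr15:78388720-78389019, held none of them.

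The control library held 229882646 UMIs and the cKO library 172368722, of which 57.8% and 57.5% lay in barcodes of at least 3000 UMIs, before the other filters. The round spermatids together held 34338240 and 32191556 UMIs. Their median depth was 11617 UMIs and 3742 genes per cell in control, and 11555 UMIs and 3669.5 genes in cKO. The P class was deeper (median 14322.5 and 12696 UMIs) and the E class shallower (6576 and 6232.5). When every cell was thinned to 3000 UMIs, the median number of genes detected was 1721 and 1700 in round spermatids, 1715 and 1673 in the P class and 1219 and 1140 in the E class. No barcode was a round spermatid in both libraries, and 25 barcodes were classed in both. A doublet caller marked 163 (6.59%) and 186 (8.70%) of the round spermatids, which were kept. Over all classed cells it marked 5.30% and 5.98%.

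Round spermatids made up 22.9% of classed cells in control (exact binomial 95% interval 22.1 to 23.7%) and 26.0% in cKO (25.1 to 27.01%). The P class took 27.3% and 28.2%, and the E class 49.8% and 45.7%. The class is a range cut from a score, not a type with a gap around it. In control 319 members (12.9%), and in cKO 213 (9.96%), had an R mean within 0.25 of their next mean. Those just inside had a median R mean of 0.431 and 0.445, and the 448 and 240 cells just outside had 0.187 and 0.177.

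**Figure D1:**
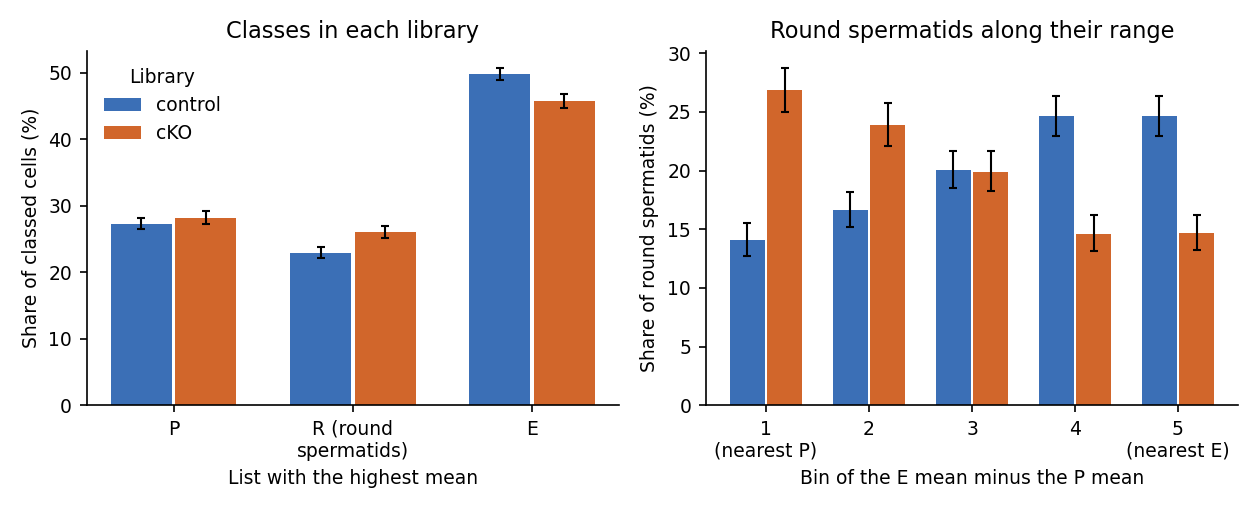
Share of classed cells (y axis, %) in the P, R and E classes for each library, with exact binomial 95% intervals that cover counting error only. Round spermatids (R) took 22.9% of classed cells in control and 26.0% in cKO.

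The genes of the rule chose the cells, so their values are a description. Acrv1, which encodes a protein of the acrosomal matrix, stood at 529 CPM (UMIs of the gene per 1e6 UMIs of the summed cells) in control and 477 in cKO round spermatids. In the P class it stood at 36.8 and 34.4 CPM, and in the E class at 54.7 and 37.0. Spaca1, for a membrane protein of the acrosome, read 766 and 799 CPM in round spermatids, Spaca7 read 476 and 486, and Catsper3, a pore subunit of the sperm calcium channel CatSper, read 170 and 202. After thinning, 75.6% and 72.7% of round spermatids held an Acrv1 UMI, against 12.8% and 9.84% of P cells. Izumo1, outside the rule, was found in 34.6% and 35.8% of thinned round spermatids, 4.82% and 4.06% of P cells and 7.22% and 5.49% of E cells. The Leydig cell gene Insl3, which germ cells should lack, was found in 0.889% and 0.281% of them.

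Some members went against the name. In control 353 round spermatids (14.3%), and in cKO 199 (9.31%), had an R mean under 0.5, a limit set after the data were seen. They were shallow (median 4047 and 4812 UMIs), rich in mitochondrial UMIs (median 5.04% and 5.71%) and held 5.24% and 3.64% of the UMIs of the class. Their 12 early spermatocyte genes, among them the synaptonemal complex genes Sycp1 and Sycp3, summed to 3686 and 2574 CPM, against 411 and 362 in the other members. Their 12 Sertoli cell genes, Clu and Aard among them, summed to 1401 and 2661 CPM, against 108 and 93.7. Their spermatogonia genes summed to 307 and 506 CPM, against 20.6 and 18.6, and their peritubular and stromal genes to 28.9 and 145, against 4.79 and 4.93. In the lowest of them, 127 and 112 cells with an R mean under 0, Sycp1 read 1635 and 994 CPM. The 27 acrosome genes summed to 3634 and 3587 CPM in the low members, against 8678 and 8874 in the rest, a gap that goes with the acrosome genes by which these cells were set apart. The low members thus carried genes of other cells, and the erythroid, Sertoli and early spermatocyte values and the 2-fold calls are given without them as well. The other 2121 and 1939 members made up 19.7% and 23.6% of classed cells.

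**Figure D2:**
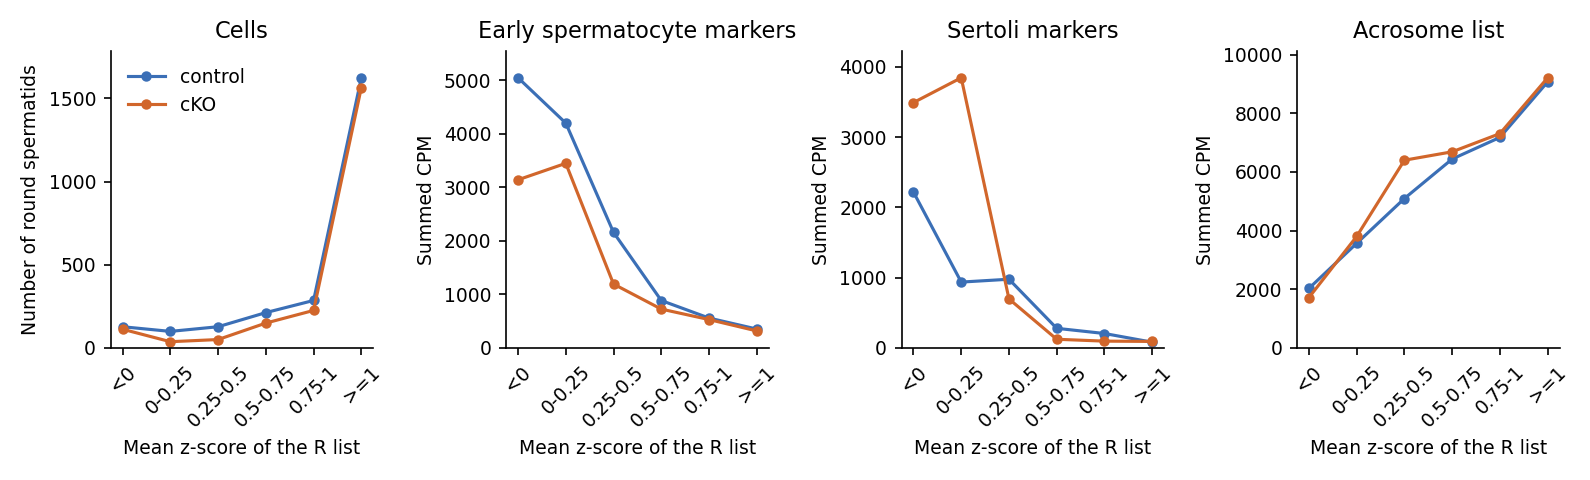
Round spermatids of each library grouped by their mean R z-score (x axis), with the number of cells or the summed CPM of 3 marker lists on the y axes. Cells under 0.5 carried the early spermatocyte and Sertoli genes, and the acrosome genes, which are close to the R genes, were higher in those at 0.5 or more.

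Markers of other testis cells were low in the class as a whole, for some lists in part by the rule. Cyp17a1 is in the Leydig list and Sox9 in the Sertoli list, and the barcode filter limited UMIs of both genes in the kept cells. The gaps of these lists to free RNA are therefore a description and do not test the purity of the class. The 7 Leydig genes summed to 8.15 and 6.31 CPM in round spermatids, against 48.9 and 59.7 CPM in barcodes under 100 UMIs, which stand for free RNA. The 6 endothelial genes summed to 4.92 and 5.47 (free RNA 45.8 and 60.8), and the 8 macrophage genes to 16.5 and 11.3 (492 and 629). The 12 Sertoli genes stood higher, at 176 and 187 CPM (323 and 360), and without the low members the cKO value was the lower, at 93.7 against 108. The 5 erythroid genes read 40.4 CPM in control and 17.6 in cKO (442 and 560). Without the low members the order turned, with 11.4 CPM in control and 17.7 in cKO.

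The members spread along the path from the late spermatocyte to the elongating spermatid, and the libraries were spread unlike. The next highest mean was P in 1696 control round spermatids (68.6%, 66.7 to 70.4%) and 1749 of cKO (81.8%, 80.1 to 83.4%). It was E in the remaining 778 (31.4%) and 389 (18.2%). All members were also ordered by the E mean minus the P mean and cut into 5 bins of equal size over both libraries, with bin 1 nearest the spermatocyte. Control cells filled the bins with 14.1, 16.6, 20.05, 24.6 and 24.6% of its members, and cKO cells with 26.8, 23.9, 19.9, 14.6 and 14.7%. By this score the cKO library thus held more of its round spermatids near the spermatocyte end than the control library did. The E mean was also lower in cKO in the P class (median -1.06 in control and -1.23 in cKO), but not in the E class (0.875 and 0.916). In free RNA, barcodes under 100 UMIs, the 4 E genes summed to 35822 and 30132 CPM. Whether stage or a library-wide gap in the E genes lies behind this was not tested. Control bin 4 was shallow, with a median of 5620 UMIs against 9458 in cKO, and its early spermatocyte markers summed to 1043 CPM against 504.

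Along these bins the gene lists took similar courses in both libraries. The acrosome list summed to 7574 CPM in control and 7986 in cKO in bin 1, 8970 and 9329 in bin 2 and 9150 and 9306 in bin 3. In bin 4 it summed to 8211 and 8835, and in bin 5 to 8172 and 8316. It was highest in bin 3 in control and in bin 2 in cKO. The 15 late spermatocyte markers went from 7470 and 7006 CPM in bin 1 to 3522 and 3489 in bin 5. The sex-linked spermatid list went from 2157 and 2429 to 4672 and 4454, and the 21 regulators from 4462 and 4443 to 7100 and 6820. The 29 histone exchange genes went from 5576 and 5877 to 23317 and 23356, and Tnp1 alone made up most of that rise. The 43 genes of flagellum and sheath stayed between 24155 and 26741 CPM in all bins of both libraries. Since the late spermatocyte list holds genes of the P score, its course follows in part from the way the bins were made. So does that of Tnp1, which goes with the genes of the E score.

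Single genes followed different courses. Sox5 was at its highest in the middle, with 326 and 358 CPM in bin 1, 525 and 515 in bin 3 and 352 and 360 in bin 5. Crem had its peak earlier, in bin 2 with 536 and 552 CPM, and was lowest in bin 5 with 337 and 353. Hils1, for a spermatid linker histone, went from 725 and 876 CPM in bin 1 to 2162 and 2255 in bin 5. Tnp1, for a transition protein, went from 775 and 675 to 12042 and 12103 CPM, most of it in the last bin.

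**Figure D3:**
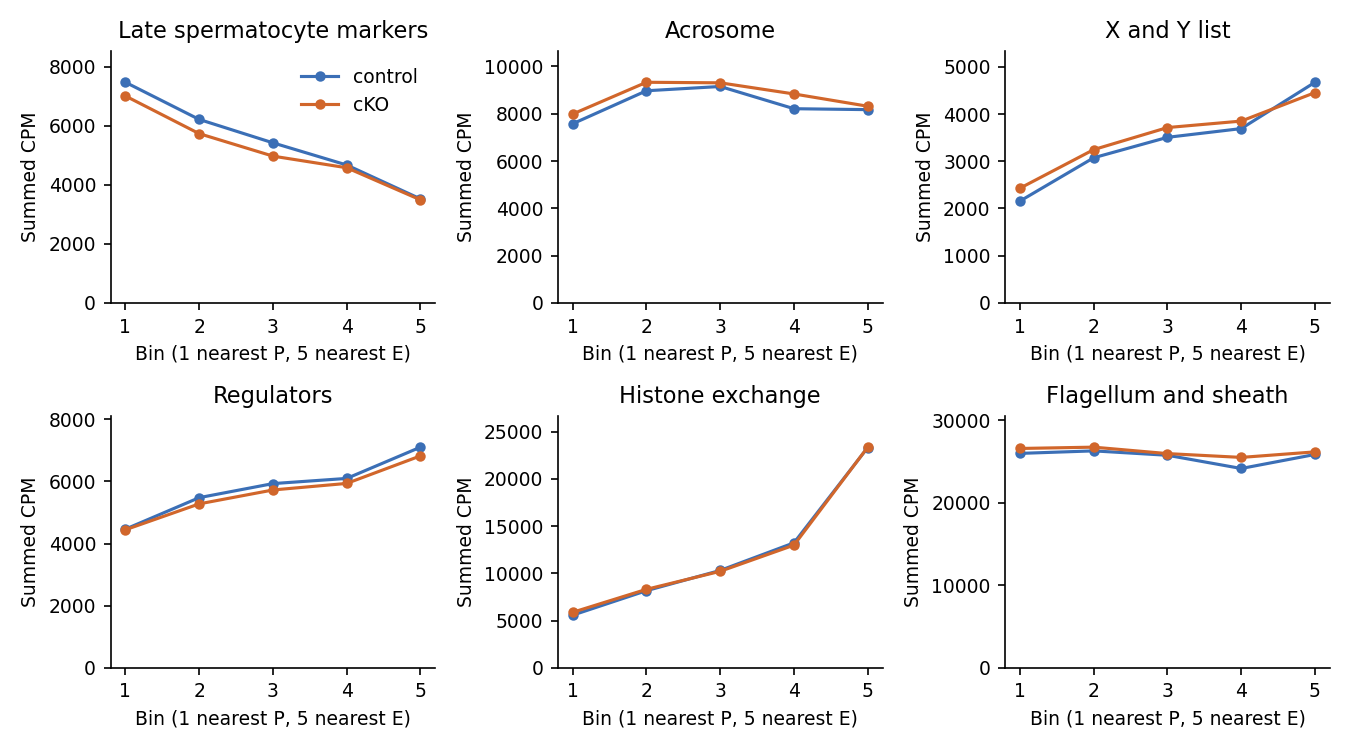
Summed CPM (y axis) of 6 gene lists in round spermatids along 5 bins from the spermatocyte side (bin 1) to the elongating side (bin 5), control in blue and cKO in orange. The acrosome list is highest in bin 3 in control and bin 2 in cKO, the histone exchange list in bin 5, and the lines of the libraries lie close together.

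Against both other classes, 1050 of 15373 genes (6.83%; the 12 genes of the rule left out) were at least 2-fold higher in round spermatids in both libraries, on a scale of log2(CPM + 5). The classes were cut from the same cells, so this describes the class and tests nothing. Among genes with at least 50 CPM in the round spermatids of each library, the gene with the largest gap was 1700001P01Rik, at 515 and 518 CPM in round spermatids, 20.6 and 19.4 in P and 40.9 and 27.5 in E. It was followed by Tex36 (568 and 613 CPM), Armh2 (509 and 596), Stambpl1 (117 and 125), the lysozyme-like Lyzl6 (434 and 454), Tsc22d4 (493 and 535) and Fam209 (1060 and 1036). Triml1 (174 and 199), Ccdc81 (345 and 309), Nipsnap3a (143 and 151), Fyb (370 and 359), Spata45 (918 and 1103), Prr27 (133 and 156), Hsfy2 (230 and 233) and Dscc1 (87.0 and 99.4) completed the 15 largest gaps. The largest log2 ratio between the libraries among these 15 was 0.26, for Spata45.

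The most abundant messages were not those that mark the class. Protamine genes Prm1 (8787 and 5981 CPM) and Prm2 (7995 and 5334), the transition protein genes Tnp2 (4745 and 3065) and Tnp1 (4406 and 3025) and the sperm lactate dehydrogenase Ldhc (6563 and 7543) led, with Gm42418 (9676 and 6327), Meig1, Ubb, Fabp9 and Ropn1l. Prm1 stood far higher in E cells, at 69929 and 80380 CPM. It read 3222 and 2987 CPM in P cells and 14263 and 12405 in free RNA.

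Acrosome genes were the list most often set above both other classes: 15 of its 27 measured members, against 6.83% of all genes. These were Actl7b, Dcst1, Dcst2, Eqtn, Hyal5, Izumo1, Lyzl4, Lyzl6, Spaca3, Spaca4, Spaca6, Spam1, Tmem190, Tmem95 and Zp3r. The rule chose the cells by other acrosome genes (Acrv1, Spaca1, Spaca7), so the list's share follows in part from the rule and is a description. Izumo1, the sperm ligand of the egg receptor JUNO, read 163 CPM in control and 169 in cKO, against 10.7 and 9.86 in P and 24.5 and 20.8 in E. Other proteins needed for fusion with the egg had the same shape. Spaca6 read 59.9 and 54.6 CPM, Tmem95 41.5 and 57.6, Dcst1 50.8 and 50.5 and Dcst2 42.3 and 50.0, each under 20 CPM in P and E. The hyaluronidase genes Spam1 (149 and 166) and Hyal5 (109 and 115), whose products loosen the matrix around the egg, were likewise low in both neighbours. Acr, which encodes the protease acrosin, was already at 169 and 151 CPM in P, with 271 and 230 in round spermatids. The zona-binding genes Zpbp (296 and 305 in P, 454 and 503 in round spermatids) and Zpbp2 (435 and 431, then 355 and 388) and Spink2, a protease inhibitor, also had spermatocyte levels near those of the round spermatid. Of the 27 members 4 were highest in P, 20 in round spermatids and 3 in E, beside 50.2, 35 and 14.8% of all genes tested.

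The median log2 ratio of cKO to control over the acrosome list was 0.07, beside -0.02 over all 15385 genes tested, with no member past 2-fold either way. The 13 genes on a list for carrying Golgi vesicles to the acrosome were unlike it. Their median was -0.26, and 12 of the 13 read lower in cKO, as did 54.4% of all genes tested. Hook1, a microtubule linker, read 433 CPM in control and 237 in cKO (log2 ratio -0.86, or -0.60 when the bins were weighted alike). It was also the lowest member of the head shape and manchette list described below, whose median was -0.03. Tmf1 read 235 and 162 (-0.52), and Golga3, a Golgi matrix protein, read 44.0 and 31.0 (-0.44). Only the autophagy gene Atg7 read higher, at 17.4 and 18.4 CPM. None reached 2-fold. In P cells 12 of the 13 also read lower in cKO, beside 54.4% of genes tested there, and Hook1 read 195 and 124 and Tmf1 418 and 271 CPM.

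CatSper, the calcium channel of the sperm tail, is built from pore subunits and accessory proteins, and its genes did not share one course. Catsper1 (51.8 and 53.8 CPM) and Catsper4 (164 and 179), both pore subunits, and Efcab9 (416 and 445), Tmem249 (120 and 130) and Tmem262 (168 and 197) stood at least 2-fold above P and E. The pore subunit Catsper2 was level with P at 222 and 229 CPM (225 and 230 in P), as was Catsperz at 1055 and 1194 (1154 and 1217). Catsperb (33.2 and 18.9), Catsperg1 (18.8 and 14.4) and Catspere2 (13.8 and 13.6) were higher in P. Thus 5 of 13 members stood above both other classes, against 6.83% of all genes, and 8 were highest in P, against 50.2%. Catsper3 was in the rule, so the first of these shares may follow in part from it. The list's median log2 ratio of cKO to control was 0.04, turning to -0.0079 with bins weighted alike, and Catsperb was its lowest member at -0.68.

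Of 21 regulators of spermatid transcription, 3 stood above both other classes, against 6.83% of all genes. Crem, the CREM activator, read 447 CPM in control and 494 in cKO (199 and 215 in P, 99.8 and 88.3 in E). Sox5 read 427 and 428, and Taf7l, a testis form of a general transcription factor subunit, 36.9 and 32.1. The RFX genes differed in stage. Rfx2 was higher in P (96.5 and 93.3 CPM) than in round spermatids (58.5 and 53.4), whereas Rfx1 (33.1 and 39.0), Rfx3 (18.7 and 16.0) and Rfx4 (45.9 and 43.6) were highest in round spermatids. Tbpl1, a relative of the TATA-binding protein, was highest in P with 633 and 670 CPM, and Sox30, a factor needed for spermatid differentiation, was highest in round spermatids with 170 and 123. The lowest log2 ratio of cKO to control in this list was that of Nr6a1, a nuclear receptor (163 and 115 CPM, -0.49). The list's median was -0.16, and -0.08 with bins weighted alike.

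RNA storage and chromatoid body genes were mostly highest in spermatocytes: this held for 25 of 29 measured members, against 50.2% of all genes. Paip2b (92.0 and 69.4 CPM) and Spata31 (304 and 270) stood above both other classes, and 2 of 29 is close to the 6.83% of all genes. The helicase Ddx25 (443 and 457), the piRNA factor Mael (429 and 497) and the Y-box proteins Ybx1 (2306 and 2277) and Ybx2 (679 and 690), which hold messages silent, were still abundant. The poly(A)-binding protein gene Pabpc1 read 1707 and 1274 (-0.42) and Tdrd6, a scaffold of the chromatoid body, 177 and 129 (-0.44). Over the list the median log2 ratio of cKO to control was -0.15, with -0.11 when bins were weighted alike and -0.08 without the low members. In all, 20 of the 29 read lower in cKO, beside 54.4% of all genes tested.

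None of the 29 histone exchange genes stood above both other classes, beside 6.83% of all genes, which 29 members are too few to tell apart. Among them 19 were highest in P, 2 in round spermatids and 8 in E, beside 50.2, 35 and 14.8% of all genes. Testis histone variants of spermatocytes were low, such as Hist1h2ba at 11.0 and 7.73 CPM (113 and 108 in P). The linker histone genes Hils1 (1457 and 1432 CPM) and H1fnt (735 and 595) were high. The exchange factors Cdyl (293 and 202) and Chd5 (263 and 197), both under 35 CPM in P, read lower in cKO with log2 ratios of -0.52 and -0.41. With the bins weighted alike these were -0.20 and -0.26. Psme4, for a proteasome activator that acts on acetylated histones, read 278 and 183 (-0.59, bin-weighted -0.65). For Tnp1 the ratio was -0.54, and -0.06 with bins weighted alike.

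Structural genes of the later sperm were already present, but the shares of these lists above both other classes (4 of 43, 3 of 26 and 2 of 19) were near the 6.83% of all genes. The testis-specific kinases had 2 of 7. Of 43 flagellum and sheath genes, Dnajb13 (341 and 394 CPM), the outer dense fibre gene Odf3 (324 and 354) and the tektins Tekt2 (872 and 948) and Tekt4 (602 and 729) stood above both other classes. The fibrous sheath scaffold Akap4 (619 and 416) was higher in E, at 2092 and 1416 CPM. Of 26 measured genes on a list for head shape and the manchette, a microtubule skirt, Sun3 (183 and 165), Sun5 (184 and 211) and Tent5d (36.1 and 30.2) stood above both. Of the testis-specific kinases, Tssk4 (234 and 284) and Tssk5 (34.9 and 43.4) stood above both, while Tssk6 was at 337 and 242 against 1882 and 2077 in E. Of 19 measured glycolysis genes, the glycerol kinase Gykl1 (519 and 595) and the lactate carrier Slc16a7 (275 and 274) did.

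Sex-linked messages set round spermatids apart from the P class. X-linked genes held 1.24% of round spermatid UMIs in control (1.237 to 1.244%) and 1.16% in cKO (1.156 to 1.163%), against 0.216% and 0.201% in P, 1.36% and 1.31% in E and 0.995% and 0.971% in free RNA. Y-linked genes held 0.0400% and 0.0424%, against 0.00531% and 0.00497% in P, 0.00880% and 0.00717% in E and 0.0165% and 0.0155% in free RNA. X-linked messages thus stayed high in E cells while Y-linked ones peaked in round spermatids. Along the bins the X-linked share went from 0.799% to 1.57% in control and from 0.843% to 1.53% in cKO. The share was higher in cKO in 3 of the 5 bins and lower in 2, and with bins weighted alike the order of the libraries turned, with 1.22% in control and 1.24% in cKO. The Y-linked share was highest in bin 2 (0.0462% and 0.0471%) and lowest in bin 5 (0.0303% and 0.0322%). Silencing of the sex chromosomes in spermatocytes is textbook knowledge, and the values are a description since the classes were cut from these cells.

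**Figure D4:**
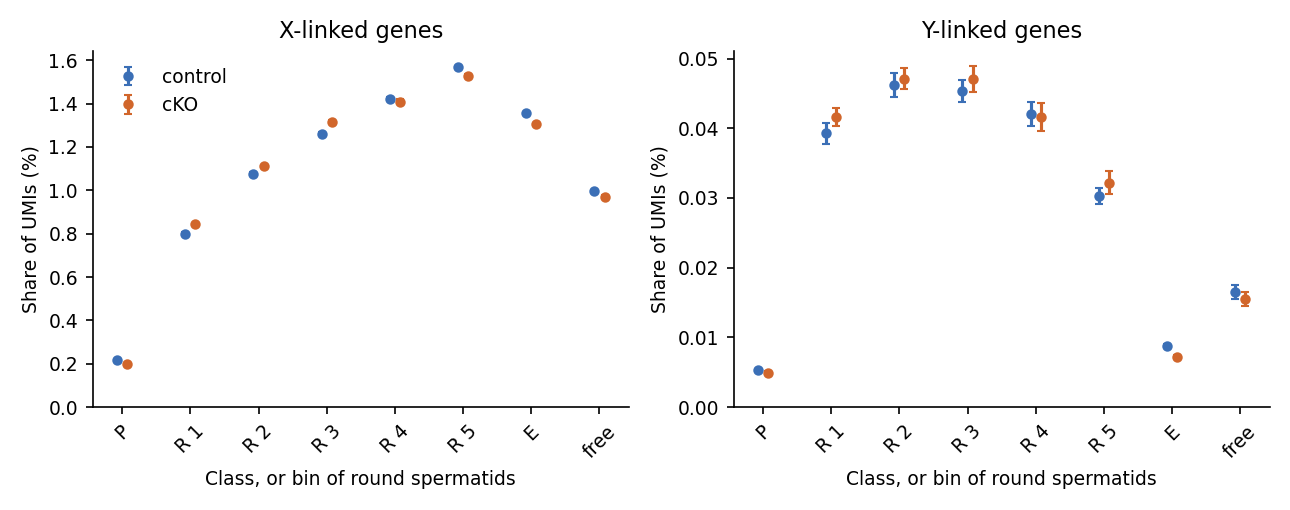
X-linked and Y-linked shares of UMIs (y axes, %) in the P class, the 5 bins of round spermatids, the E class and free RNA, for both libraries. Bars are exact binomial 95% intervals for counting error. X-linked shares are 0.799% and 0.843% in bin 1 and 1.57% and 1.53% in bin 5, while Y-linked shares are highest in bin 2.

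Genes entered these counts through their UMIs in round spermatids, which favours genes that are high there. Of 483 X-linked genes tested, 350 (72.5%) were highest in round spermatids and 86 (17.8%) stood at least 2-fold above both other classes. Of 41 Y-linked genes, 38 (92.7%) and 10 (24.4%) did. Of 13739 autosomal genes the shares were 32.0% and 6.34%. With genes taken in by their UMIs in P and E alone, 352 of 523 X-linked genes (67.3%), 28 of 31 Y-linked genes (90.3%) and 27.9% of 15420 autosomal genes were highest in round spermatids. The X-linked genes with the most UMIs were Tsga8 (1196 CPM in control and 1287 in cKO, with 114 and 120 in P) and Akap4. Slxl1, of the X-linked Slx family, read 287 and 344 CPM. On the Y, Eif2s3y, a translation initiation factor gene, read 88.2 and 95.6 (13.2 and 11.5 in P), and Zfy2, a zinc finger regulator, 11.4 and 10.2. Sly (16.0 and 13.3), Ssty2 (12.5 and 14.4) and Slxl1 belong to multicopy families whose reads the counting may have split, so that their levels are uncertain. Ssty1, Ott, Rbmy and Rhox3a are listed with 0 UMIs.

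A haploid cell inherits an X or a Y, yet nearly every cell held messages of both. Among round spermatids with at least 10000 UMIs and an R mean of at least 1, 2 of 1210 control cells and 4 of 1125 cKO cells had no Y-linked UMI. The median was 4.19 and 4.44 Y-linked UMIs per 10000, with 5th and 95th percentiles of 1.58 and 7.50 in control and 1.66 and 7.68 in cKO. X-linked UMIs had medians of 129 and 118 per 10000. When cells were split into 4 equal groups by rising share of Y-linked UMIs, the X-linked median was 141, 133, 122 and 127 in control and 125, 120, 118 and 113 in cKO. Spermatids are known to share messages through bridges, and free RNA also holds both kinds; their parts were not tested.

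Kdm6a itself was near the limit of detection. It had 79 UMIs in control round spermatids (2.30 CPM) and 17 in cKO (0.528 CPM). In P it read 1.53 and 0.325 CPM, in E 1.25 and 0.578, and in free RNA, which also holds somatic messages, 4.31 and 6.88. After thinning 1.62% of control round spermatids and 0.374% of cKO ones held a Kdm6a UMI, beside 0.889% and 0.281% for Insl3. The low members held 40 of the 79 and 11 of the 17 UMIs. Among the other members Kdm6a had 39 UMIs (1.20 CPM) and 6 (0.193 CPM). The UMIs come from the 3′ end and the labels do not say which exons are removed, so these counts do not check the deletion.

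The other genes that write, read or erase methylation of H3 lysine 27 were mostly low in round spermatids. Kdm6b, the autosomal demethylase paralog, read 17.3 and 13.98 CPM (6.22 and 6.09 in P), and from bin 1 to bin 5 it went from 5.34 to 23.8 in control and from 7.48 to 19.5 in cKO. Uty, the Y-linked paralog, read 2.77 and 2.36 CPM. Ezh2, a methyltransferase of PRC2, was higher at 115 and 116 CPM, and went the other way, from 158 and 142 in bin 1 to 54.3 and 58.4 in bin 5. The PRC2 subunit Suz12 read 21.4 and 13.8 CPM (-0.49) and the PRC1 gene Bmi1 85.9 and 64.5 (-0.39). Bmi1 rose from 61.4 CPM in bin 1 to 135 in bin 5 in control and from 50.7 to 115 in cKO. Control held more of its members in the later bins, so the ratio of Bmi1 depends in part on the make-up of the class. None of the 28 measured members stood above both other classes, beside 6.83% of all genes, which 28 members are too few to tell apart. Their median log2 ratio was -0.14, with -0.08 without the low members and -0.26 on the side nearer E. With 5 CPM added none passed 2-fold between libraries. Without the added CPM 1 of the 28 did, as did 1.95% of all genes tested. This was Kdm6a, with a log2 ratio of -2.12 (counting interval -2.97 to -1.35), against -0.40 with 5 CPM and -1.11 with 1 CPM added.

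Few genes differed 2-fold between the libraries on the scale with 5 CPM added. Of 15385 genes with at least 50 UMIs over both sums, 7 (0.0455%) were at least 2-fold lower in cKO and 1 (0.0065%) was at least 2-fold higher, 0.052% in all. The lower count depends on the scale and the depth: it was 54 with 1 CPM added, beside 5 higher genes, and 31 after thinning. With no CPM added 300 genes (1.95%) passed 2-fold in either direction. Clasrp, for a partner of a splicing kinase, was lowest, at 231 CPM in control and 61.0 in cKO (log2 ratio -1.84; without the added 5 CPM -1.92, counting interval -1.99 to -1.85). Map4k1, for a kinase known from lymphocytes, was the gene that stood higher, at 58.5 and 152 CPM (1.31; without the added CPM 1.38, 1.31 to 1.46). Both gaps held along the whole path: Clasrp read 313 and 75.5 CPM in bin 1 and 142 and 46.2 in bin 5, and Map4k1 read 83.7 and 188, then 38.2 and 101. Neither was limited to this class, since Clasrp read 130 and 38.2 in P and 161 and 50.0 in free RNA, and Map4k1 read 31.5 and 87.1 and then 51.9 and 108.

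The other 6 lower genes were the zinc finger gene Zfp59 (10.3 and 0.963 CPM), the mitochondrial gene mt-Nd6 (19.4 and 4.88), Gm8251 (232 and 92.1), Hist1h2aa (20.3 and 7.02), 4930407I10Rik (78.8 and 35.5) and Hbb-bs (24.0 and 9.10). Next in order, Fam177a read 73.4 and 34.4 CPM with a log2 ratio of -0.99, just short of the limit. After Map4k1 the highest ratios belonged to Zfp607b (47.0 and 88.7 CPM, 0.85), BC037704 (19.7 and 39.0, 0.83), Npas1 (5.10 and 12.4, 0.78), Fam98c (286 and 489, 0.76), Gm32772 (0.71), Gm15247 (0.69) and Gm32846 (0.68). Chromosome 7 holds 3 of the 8 lowest and 6 of the 8 highest of these genes, and 7.45% of tested genes with a known chromosome. On it, start sites of Clasrp (minus strand) and Map4k1 (plus strand) lie within chr7:19604437-19604736 and chr7:28981800-28982099 of GRCm38.p6.

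Several of these calls moved with the make-up of the class. Hbb-bs, the adult beta-globin gene of red cells, had 609 of its 823 control UMIs in the low members, and without those members it read 6.58 CPM in control and 9.45 in cKO (log2 ratio 0.32, the opposite direction). Hist1h2aa, for a testis variant of histone H2A that was highest in P, lay mostly in the middle bins, with 59.7 and 15.7 CPM in bin 4. Its ratio was -0.61 without the low members. With an R mean of at least 0.5, 5 genes (0.0341%) were lower and 1 (0.00682%) higher, all 5 of them among the 7. On the side nearer the spermatocyte 7 genes (0.0486%) were lower, 5 of them shared, and on the side nearer E 14 (0.129%), 3 of them shared, with Map4k1 the 1 higher gene on each side (0.00694% and 0.00923%). With bins weighted alike 5 were lower, 4 of them shared: Gm8251 went to -0.81 and 4930407I10Rik to -0.69.

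**Figure D5:**
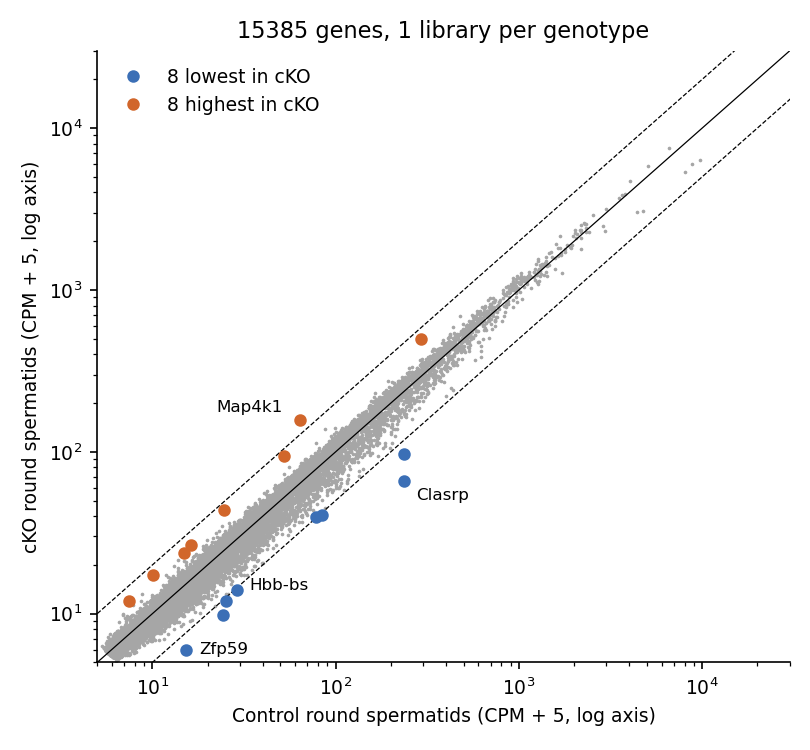
CPM + 5 of each of 15385 genes in control (x axis) and cKO (y axis) round spermatids, log axes, with lines at equal levels and at 2-fold. Coloured points are the 8 lowest and the 8 highest genes; Clasrp lies at 231 against 61.0 CPM and Map4k1 at 58.5 against 152.

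Several of the lists' median log2 ratios of cKO to control moved when bins were weighted alike. The 15 elongating markers had a median of -0.34 (Prm1 -0.55, Tnp2 -0.63). The bins were cut on the E score, which holds Prm1, Prm2, Tnp2 and Oaz3, so weighting them alike evens out these genes by construction and those that go with them in part. The 11 elongating markers outside the rule had a median of -0.31, and -0.0077 with bins weighted alike. The sex-linked list had -0.11 and then, with bins weighted alike, -0.01, and within it Akap4 had -0.57, then -0.35. The histone exchange list had -0.24, then -0.15, and -0.14 without the low members. Of its 29 members 1, Hist1h2aa, was 2-fold lower, against 0.0455% of all genes, a call that was lost without the low members (-0.61). The early spermatocyte markers had -0.38, then -0.43, and -0.16 without the low members. Flagellum and sheath (-0.05, then -0.02), manchette and head shape (-0.03, then -0.07) and glycolysis (0.04, then 0.05) lay near the -0.02 of all genes. The testis kinases turned from -0.06 to 0.10. Over 14 alternative settings the median ran from 0.04 to 0.16 for the acrosome list, from -0.40 to -0.11 for the Golgi list, from -0.18 to -0.08 for the regulators and from -0.33 to -0.08 for the genes of H3 lysine 27 methylation. Within each library's bins the summed levels of the acrosome and flagellum lists were slightly higher in cKO in all 5 bins.

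The chromatin of these genes was measured earlier in development, in sorted cKIT+ spermatogonia, by ATAC-seq (open chromatin) and by CUT&Tag for H3K27me3, each with 2 control and 3 cKO libraries. RefSeq windows were found for 602 of the 729 protein-coding genes off chromosome 18 that stood above both other classes (82.6%), and for 9973 of 11924 such genes among all tested (83.6%). A gene counted as touched in a library when any of its listed windows was, so the window could differ between libraries. An ATAC-seq peak touched a window in every one of the 5 libraries for 175 of the 602 (29.1%), against 52.1% of all genes tested and 65.0% of those highest in P. It touched none of the 5 for 258 (42.9%), against 19.8% and 9.68%. Acrosome genes went further: 3 of 23 (13.04%) were under a peak in every library and 16 (69.6%) in none. H3K27me3 regions touched 3.32% of the 602 genes in every library and 86.4% in none, against 2.36% and 89.1% of all genes. For the acrosome genes these were 2 and 14 of 23. The IgG library, a control for unspecific signal, touched 3 of the 602 (0.498%) and 0.271% of all genes, but 2 of the 23 acrosome genes (8.70%). That was also the share under H3K27me3 regions in all 5 libraries at once. Taken singly, the H3K27me3 libraries touched 17.4 and 30.4% of the 23 in control and 8.70, 21.7 and 34.8% in cKO.

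Of the promoters shown above and a few others, the windows of Acrv1 and Catsper3 lay under no ATAC-seq peak and no H3K27me3 region in any library. Those of Spaca1, Izumo1 and Tex33 lay under an ATAC-seq peak in 1 cKO library each. The other Tex33 window, not shown, lay under no peak. That of Spaca7 lay under H3K27me3 regions of 2 control libraries and 1 cKO library. Clasrp and Kdm6a, by contrast, lay under an ATAC-seq peak in all 5 libraries.

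No difference between genotypes in these shares was larger than the spread between libraries. ATAC-seq peaks touched 42.5 and 51.0% of the 602 genes in the control libraries and 31.7, 40.2 and 56.1% in the cKO libraries. The means were 46.8% ± 5.99 (SD, n = 2) and 42.7% ± 12.4 (SD, n = 3), a difference of -4.07 percentage points (two-sided exact permutation p = 0.8, where the smallest possible is 0.1). The lists were unequal in size, with 19118 and 33250 peaks in control and 14635, 18883 and 40497 in cKO, and the shares followed that order. Over all genes tested the shares were 66.0 and 76.0% in control and 54.7, 64.2 and 78.5% in cKO. The libraries stood in the same order there, so the gap is not particular to the 602. For the 602 the difference turned to 1.41 points without cKO library 1 and to 0.166 without control library 2. It was -2.82 without cKO library 2, -10.8 without cKO library 3 and -8.31 without control library 1. H3K27me3 regions touched 9.72% ± 1.997 (SD, n = 2) and 7.75% ± 2.35 (SD, n = 3), a difference of -1.97 points (two-sided exact permutation p = 0.4). It ran from -3.38 points without control library 1 to -0.554 without control library 2, was -3.32 without cKO library 3, -1.25 without cKO library 1 and -1.33 without cKO library 2. The region lists held 14545 and 18494 regions in control and 11118, 14584 and 15368 in cKO.

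The motifs were present in a minority of these windows. TGACGTCA occurred in 32 of 767 windows of genes that stood above both other classes (4.17%), against 3.09% of the windows of all genes tested and 1.79% of all 32851 windows, counting both strands and every listed start site. The shorter TGACG occurred in 24.5%, against 29.7% and 20.8%. GTTGCCATG occurred in 22 of the 767 (2.87%), against 0.926%, 0.773% and, for genes highest in P, 0.644%. A match of letters is a description and does not show binding.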

How the data were processed

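The 2 single-cell matrices hold UMI counts per gene and barcode, which the authors made with Cell Ranger, per the file headers, for every barcode, with no cells selected. The submitters' processing notes also name Seurat 4.1.0, mm10, cutadapt, Bowtie2, MACS2, SAMtools, deepTools and SEACR, without roles. The ATAC-seq peak lists of the authors give a -log10 q per peak, at least 1.3 in every deposited line. The CUT&Tag lists give the summed signal per region, as deposited by the authors, and only positions were used.

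Cells were classed as described, on log1p of UMIs per 10000, with z-scores over both libraries. UMIs were summed per class and library, given as CPM and compared as log2 ratios with 5 CPM added. Genes needed 50 UMIs over both sums, and a log2 ratio of at least 1 either way was counted as a call, since 1 library per genotype allows no test. Intervals are exact (Clopper-Pearson, or conditional binomial for ratios) at 95% and cover counting error only. Doublets were called with scrublet in scanpy 1.11.5 and kept. The steps were tested on simulated data. Chromosomes came from a RefSeq table, for 82.7% of genes, and 9 of 445 list symbols were not matched. A peak counted when it touched a window by 1 bp, and a gene when any of its windows was touched. Round spermatid promoters were compared by exact permutation over libraries, whose labels give no shared animal.

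The text names list members, the 15 genes highest against P and E, the 8 lowest and 8 highest between libraries and the 10 with the most UMIs. The cells, lists and measures were chosen with earlier results of these data known. The minimum R mean of 0.5, the weighting of bins, the gene filter on P and E and the promoter comparison were chosen after the data were seen. Bulk RNA files, which list transcripts without genes, were not used here. Python 3.11.15, numpy 2.4.6, scipy 1.17.1, R 4.3.3 and edgeR 4.0.16 were used, the last for TMM factors alone.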

Additional observations from a re-analysis of the deposited data

How the results depend on the processing

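With 1 library per genotype, none of the single-cell differences has a replicate check, and depth limits Kdm6a, Uty and most Y-linked genes. Of 98 alternative values of the main results 73 stayed close to the reported value, 23 moved and 2 reversed. Close means inside the 95% counting interval for shares, no farther than its wider arm for Kdm6a, within 1.5-fold for counts and of the same sign for promoter differences. Of 314 alternative values of list medians 275 stayed within 0.1 of the reported log2 value. Of 224 values of single genes 182 stayed within the wider arm of their counting interval, 40 moved and 2 reversed. The sign of 11 of the 23 list medians changed in at least 1 alternative, in 31 of the 314 values, and the erythroid median went from -0.39 to 0.32 without the low members. The X-linked share of genes highest in round spermatids was 67.3% with genes taken in by P and E. The share of round spermatids was 19.97% in control and 23.5% in cKO when the R mean had to lead by 0.25, 19.7% and 23.6% with an R mean of at least 0.5, and 29.96% in cKO with at least 5000 UMIs.

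The X-linked share of control was 1.232% with 5000 UMIs, 1.233% with at most 10% mitochondrial UMIs, 1.25% with the lead of 0.25, 1.246% without called doublets, 1.256% after thinning and 1.233% with an R mean of at least 0.5. In cKO it was 1.152% with at most 10% mitochondrial UMIs, 1.17% with the lead of 0.25, 1.165% without doublets, 1.178% after thinning and 1.15% with an R mean of at least 0.5. It was lower in cKO than in control under each setting given for both, but higher with bins weighted alike (1.225% in control and 1.241% in cKO).

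The count of lower genes was 31 after thinning and 14 on the side nearer E, both with fewer UMIs, and 54 with 1 CPM added in place of 5, which also gave 5 higher genes. In the other settings it ran from 5 to 10, with 1 higher gene. Hbb-bs reversed to 0.31 with the lead of 0.25 and to 0.32 with an R mean of at least 0.5, settings that leave out the cells which held most of its control UMIs. Clasrp ran from -1.96 to -1.58 and Map4k1 from 1.20 to 1.45 over 14 alternatives each, and both stayed past 2-fold. TMM scaling moved log2 ratios by at most 0.06, and less for genes at low CPM.

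For ATAC-seq peaks on promoters, leaving out 1 library at a time gave differences from -10.8 to 1.41 points, reversed without cKO 1 (1.41) and without control 2 (0.166). For H3K27me3 they ran from -3.38 to -0.554. The cause was not tested. With a replicate block, taken as the mean difference between libraries with the same number, the ATAC-seq difference was -10.8 points and the H3K27me3 difference -3.32 points. These values have no test and leave cKO 3 out, and nothing in the labels ties a number to a shared animal or day. No paired analysis was possible for the single-cell libraries because each genotype has 1.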
